A study of Mus musculus with 9 samples.

Results

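The perineuronal net genes described here are 10 of the 37893 genes in the count table, chosen by name: the lecticans Acan, Bcan, Ncan and Vcan, the link proteins Hapln1, Hapln2 and Hapln4, the tenascins Tnr and Tnc, and the receptor phosphatase Ptprz1. Earlier results of these data were known when these genes were chosen. They were measured by RNA sequencing of mouse cerebral cortex in 9 libraries, 3 in each of 3 groups, and the labels state 3 mice per group. The sham_WT group held wild-type cortex after sham surgery. The IR_WT group held the peri-infarct area of ischemic cortex from wild-type mice after tMCAO, a transient occlusion of the middle cerebral artery, with 60 min of ischemia and 1 day of reperfusion. The IR_Matn3_ko group held the same area after the same insult in mice with a knockout of Matn3, the gene of the cartilage matrix protein matrilin-3. The knockout is described as Matn3 -/- with no promoter, Cre or line named, and age, sex and strain are not given in the sources used here. No sham-operated knockout was analysed here, so IR_Matn3_ko against sham_WT compares surgery, sampled area and genotype at once.

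Perineuronal nets are lattices of matrix around the cell body and proximal dendrites of some neurons, above all the parvalbumin interneurons of the cortex. Long hyaluronan chains at the cell surface bind lecticans, which are chondroitin sulfate proteoglycans, and link proteins hold each lectican on its hyaluronan chain. Tenascin-R crosslinks the lecticans at their other end, and Ptprz1 anchors part of the net at the cell surface and also occurs as a secreted form, phosphacan. Aggrecan and Hapln1 are hallmarks of these nets, while brevican, neurocan and versican are also found in the looser matrix between cells, and several of the genes are made by astrocytes or oligodendrocyte precursors. In injured brain the balance of these proteoglycans and tenascins is known to change in the tissue around a lesion.

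Total counts ran from 53400376 to 68370527 per library, and 3 counts in a library were worth 0.0422 to 0.0592 CPM, the unit of counts scaled to library size. Counts of the targeted gene Matn3 were 0, 4 and 26 in the sham_WT libraries, 33, 12 and 48 in the IR_WT libraries, and 0, 17 and 0 in the IR_Matn3_ko libraries. Those counts are too low to check the genotype labels, and the library labelled IR_Matn3_ko replicate 2 held more Matn3 than either of the first 2 sham_WT libraries. The libraries also held transcripts of tissues other than brain. The summed CPM of 15 small intestine markers was 9.20 to 11.5 in the sham_WT libraries and IR_WT replicate 1 and 70.0 to 361 in the other 5 libraries. The summed CPM of 9 B cell markers ran the other way, at 64.1 to 92.9 in the first set and 1.65 to 3.32 in the second. All sham_WT libraries were in 1 set and all IR_Matn3_ko libraries in the other, so in that comparison set and group cannot be told apart except through IR_WT, where replicate 1 was in the first set and replicates 2 and 3 in the second. Neuron markers were abundant in every library, at 6987 to 11705 summed CPM over 9 genes. In bulk tissue fewer cells of a type and less RNA per cell cannot be told apart.

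In IR_Matn3_ko against sham_WT, 6 of the 10 genes passed edgeR's quasi-likelihood test at an adjusted p under 0.05, against 22.5% of the 17247 genes tested. Brevican (Bcan), Hapln1, Hapln4, Ptprz1 and tenascin-R (Tnr) fell, against 10.7% of all genes tested that fell, and tenascin-C (Tnc) rose, against 11.8% that rose. Acan, Ncan, Vcan and Hapln2 did not pass. None of the 10 passed in IR_WT against sham_WT, where 4.06% of all genes did. None passed in IR_Matn3_ko against IR_WT either, where 0% of all genes did. By DESeq2 as another count test, 5 of the 10 genes (Bcan, Hapln1, Hapln4, Tnr and Ptprz1) were called lower in IR_Matn3_ko than in IR_WT, against 1.71% of all genes called lower, and Bcan and Hapln1 were called lower in IR_WT than in sham_WT, against 4.07%. At an unadjusted p under 0.05, edgeR counted 3304 of all genes in IR_WT against sham_WT and 2302 in IR_Matn3_ko against IR_WT. The median log2 fold change of the 10 genes was -0.17 in IR_WT against sham_WT, -0.44 in IR_Matn3_ko against IR_WT and -0.53 in IR_Matn3_ko against sham_WT, beside medians over all genes of 0.0017, -0.0013 and 0.00029. The 3 comparisons share libraries, so their values are set side by side and not as separate evidence.

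Groups did not overlap in 3 of the 10 genes in IR_WT against sham_WT, where 25.6% of all genes tested showed no overlap, and all 3 (Bcan, Hapln1 and Ptprz1) were lower in IR_WT, against 12.5% of all genes. In IR_Matn3_ko against IR_WT, 7 of the 10 showed no overlap, against 17.9% of all genes. Of those 7, Tnc was higher in IR_Matn3_ko, against 9.42% of all genes, and Bcan, Ncan, Hapln1, Hapln4, Tnr and Ptprz1 were lower, against 8.44%. In IR_Matn3_ko against sham_WT, 7 showed no overlap, against 42.5% of all genes, with Tnc and Vcan higher (21.6% of all genes) and the 5 genes that fell lower (20.8%).

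**Figure D1:**
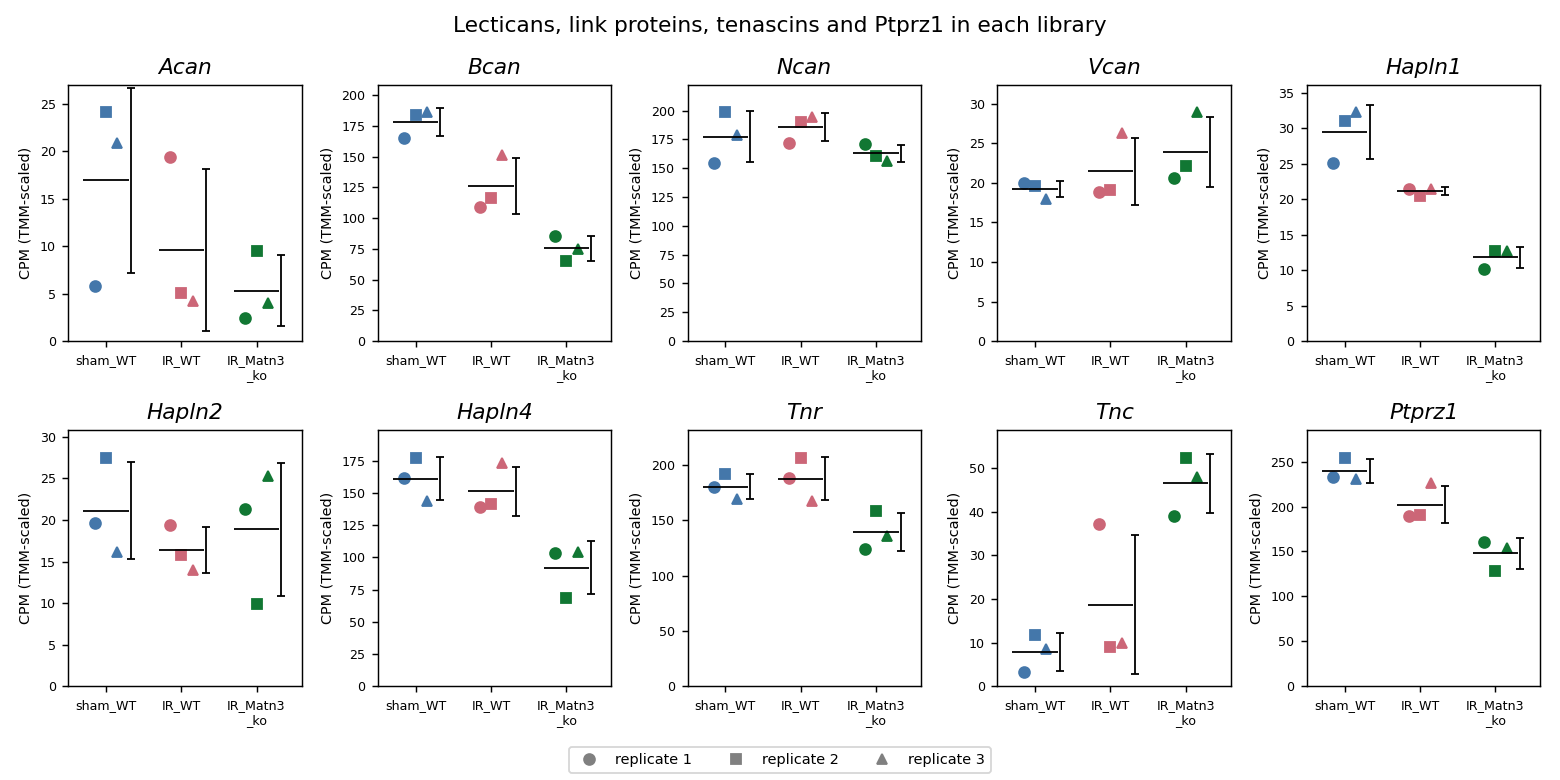
CPM (vertical axis, scaled by TMM factors) of each of the 10 genes in the 9 libraries, with 1 symbol per replicate, a line at the group mean and a bar of 1 SD beside it. Bcan, Hapln1 and Ptprz1 step down from sham_WT to IR_WT to IR_Matn3_ko with no overlap between groups. Tnc is high in the 3 IR_Matn3_ko libraries and in IR_WT replicate 1, and Ncan stays between 154 and 199 CPM.

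Levels per length, in the deposited FPKM (fragments per kilobase of gene, scaled to mapped fragments), put Bcan and Hapln4 first in sham_WT at 37.9 ± 2.56 and 35.5 ± 3.69 FPKM (SD, n = 3), with overlapping ranges. Ncan followed at 21.3, Ptprz1 at 14.5, Tnr at 12.1, Hapln2 at 7.69 and Hapln1 at 4.31 FPKM, each separate from its neighbours in that order. Acan at 1.96, Vcan at 1.14 and Tnc at 0.874 FPKM came last, each overlapping the next. In IR_WT the order opened with Hapln4 (35.5), Bcan (28.5) and Ncan (23.8), with Hapln4 and Bcan overlapping and Bcan and Ncan overlapping. Tnr (13.5) and Ptprz1 (13.1) overlapped too, above Hapln2 (6.37) and Hapln1 (3.29), and the last of the order, Tnc (2.21), Vcan (1.36) and Acan (1.17), overlapped each other. In IR_Matn3_ko it opened with Hapln4 (22.1) and Ncan (21.4), which overlapped, followed by Bcan at 17.5 FPKM, which lay below Ncan without overlap and overlapped Hapln4. Tnc moved from last place in sham_WT to above Hapln1, Vcan and Acan in IR_Matn3_ko, at 5.66 ± 0.906 FPKM.

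Among the lecticans, brevican (ENSMUSG00000004892) is the one with the shortest core protein and is made mainly by astrocytes and, in mice, also by oligodendrocyte precursors. Its CPM was 165, 184 and 186 in sham_WT, 109, 117 and 152 in IR_WT, and 85.7, 65.5 and 75.0 in IR_Matn3_ko. Every IR_WT library was below every sham_WT library and above every IR_Matn3_ko library. Bcan fell in IR_Matn3_ko against sham_WT by 1.24 ± 0.14 on the log2 scale (SE; adjusted p = 0.000426, edgeR), from 178 ± 11.6 to 75.4 ± 10.1 CPM (SD, n = 3). The log2 fold changes of -0.50 ± 0.14 in IR_WT against sham_WT (adjusted p = 0.0741, edgeR) and -0.74 ± 0.14 in IR_Matn3_ko against IR_WT (adjusted p = 0.116, edgeR) did not pass. Without IR_WT replicate 3, the highest of its group, the first of these was -0.66 and passed (adjusted p = 0.0260, edgeR).

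Neurocan (Ncan, ENSMUSG00000002341), a secreted lectican of the developing and injured brain, had the narrowest range of the 10 genes on a log scale. Its CPM was 154, 199 and 179 in sham_WT, 172, 190 and 195 in IR_WT, and 171, 161 and 157 in IR_Matn3_ko. Sham_WT spanned the values of both other groups, and the IR_Matn3_ko libraries were all below the IR_WT libraries by a small step. The log2 fold change was 0.07 in IR_WT against sham_WT, with a 95% interval of -0.15 to 0.29, and -0.19 in IR_Matn3_ko against IR_WT, with an interval of -0.41 to 0.03. In IR_Matn3_ko against sham_WT it was -0.12, with an interval of -0.34 to 0.10, and its sign turned with no scaling factors (0.020) and in limma on FPKM (0.011 and 0.012).

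Versican (Vcan, ENSMUSG00000021614), the lectican with the longest spliced forms, is made by oligodendrocyte precursors and by cells of vessels and meninges. Its CPM was 19.9, 19.6 and 18.0 in sham_WT, 18.9, 19.1 and 26.4 in IR_WT, and 20.6, 22.2 and 28.9 in IR_Matn3_ko. Every IR_Matn3_ko library was above every sham_WT library, but the log2 fold change of 0.32 had a 95% interval of -0.05 to 0.69 (adjusted p = 0.196, edgeR). Against IR_WT the groups overlapped, with a log2 fold change of 0.15 and an interval of -0.21 to 0.52.

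Aggrecan (Acan, ENSMUSG00000030607), the lectican that marks perineuronal nets in cortex, is also the main proteoglycan of cartilage. Its CPM was 5.84, 24.1 and 20.8 in sham_WT, 19.4, 5.04 and 4.23 in IR_WT, and 2.45, 9.54 and 3.97 in IR_Matn3_ko. Sham_WT replicates 2 and 3 and IR_WT replicate 1 were high and the other 6 libraries were low, across the group labels. The same 3 libraries held 257 to 280 summed CPM of 12 cartilage markers, such as the cartilage collagens Col2a1 and Col9a1, while the other 6 held 22.5 to 36.8. Within the 6 libraries low in those markers, Acan was highest in IR_Matn3_ko replicate 2, where the markers summed to their lowest value.

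None of the Acan comparisons passed: the log2 fold change was -0.83 ± 0.71 in IR_WT against sham_WT, -0.84 ± 0.71 in IR_Matn3_ko against IR_WT and -1.67 ± 0.72 in IR_Matn3_ko against sham_WT (adjusted p = 0.128, edgeR). With the log2 cartilage sum as a term in the fit these values were -0.13, 0.37 and 0.24, so both IR_Matn3_ko comparisons turned in sign. Without IR_WT replicate 1 the value in IR_WT against sham_WT was -1.87, and in IR_Matn3_ko against IR_WT it was 0.21. In IR_Matn3_ko the direction of Acan thus depended on these settings, and the part of net-bearing neurons in it was not tested.

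**Figure D2:**
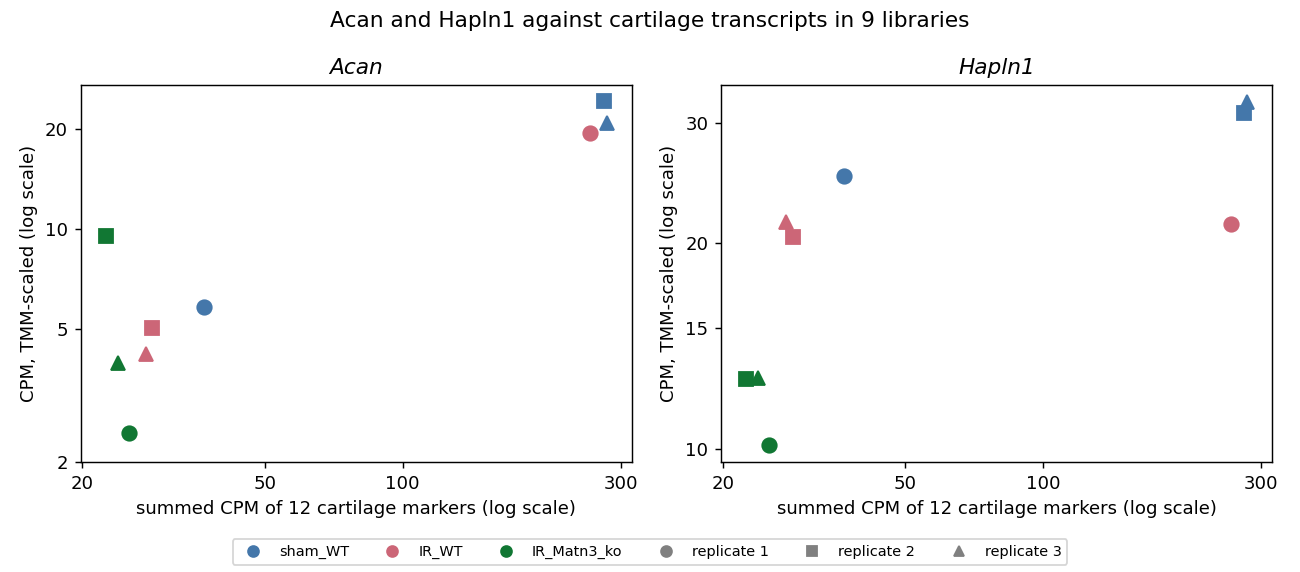
Acan and Hapln1 (vertical axes, CPM, log scale) against the summed CPM of 12 cartilage markers (horizontal axes, log scale) in the 9 libraries, coloured by group with a symbol per replicate. The 3 libraries at 257 to 280 CPM of cartilage markers hold the 3 highest Acan values. For Hapln1, the IR_WT libraries lie at 20.4 to 21.5 CPM on both sides. The sham_WT libraries lie at 25.1 CPM on the low side and at 31.1 and 32.2 CPM on the high side.

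The link proteins bind both hyaluronan and the lectican's globular end. Hapln1 (ENSMUSG00000021613), the link protein of cartilage and of cortical nets, had 25.1, 31.1 and 32.2 CPM in sham_WT, 21.4, 20.4 and 21.5 in IR_WT, and 10.1, 12.6 and 12.7 in IR_Matn3_ko. These groups formed 3 separate steps. Hapln1 fell in IR_Matn3_ko against sham_WT by 1.32 ± 0.13 on the log2 scale (SE; adjusted p = 0.000229, edgeR), from 29.5 ± 3.83 to 11.8 ± 1.47 CPM (SD, n = 3). The steps of -0.48 ± 0.13 from sham_WT to IR_WT (adjusted p = 0.0703, edgeR) and -0.84 ± 0.13 from IR_WT to IR_Matn3_ko (adjusted p = 0.0752, edgeR) did not pass. Over the 9 libraries, Hapln1 had an r of 0.727 with the log2 cartilage sum, beside 0.908 for Acan, given as a description of libraries that share groups. Within IR_WT, replicate 1 had 257 CPM of the cartilage markers and 21.4 CPM of Hapln1. Replicates 2 and 3 had 28.4 and 27.6 CPM of the markers and 20.4 and 21.5 CPM of Hapln1. Within sham_WT, replicate 1 had 36.8 CPM of the markers and 25.1 CPM of Hapln1. Sham_WT replicates 2 and 3 had 275 and 280 CPM of the markers and 31.1 and 32.2 CPM of Hapln1. With the cartilage term, Hapln1 passed in IR_Matn3_ko against sham_WT at -1.17 ± 0.17 (adjusted p = 0.00324, edgeR), against 5.5% of all genes called lower in that fit. All IR_Matn3_ko libraries were low in these markers, at 22.5 to 25.2 CPM, so the term was estimated almost wholly within sham_WT and IR_WT. Replicate 1 was the only sham_WT library low in them. The fit therefore cannot separate cartilage transcripts from group in IR_Matn3_ko, and their part in the values of Hapln1 was not tested.

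Hapln4 (ENSMUSG00000007594), a brain link protein that in mice binds brevican at nets of the brainstem and cerebellum, had 162, 177 and 144 CPM in sham_WT, 139, 141 and 173 in IR_WT, and 103, 68.4 and 104 in IR_Matn3_ko. Sham_WT and IR_WT overlapped and the IR_Matn3_ko libraries were below both. Hapln4 fell in IR_Matn3_ko against sham_WT by 0.81 ± 0.16 on the log2 scale (SE; adjusted p = 0.00794, edgeR). Against IR_WT the value was -0.72 ± 0.16 (adjusted p = 0.126, edgeR), while IR_WT against sham_WT gave -0.09, with a 95% interval of -0.45 to 0.27 and a sign that turned in limma on FPKM (0.0017 and 0.0018). The fall from sham_WT no longer passed with a term for the library set, at -0.98 ± 0.30 (adjusted p = 0.0853, edgeR).

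Hapln2 (ENSMUSG00000004894), the link protein of the nodes of Ranvier, is made by myelinating oligodendrocytes. It had 19.7, 27.5 and 16.2 CPM in sham_WT, 19.4, 15.9 and 13.9 in IR_WT, and 21.4, 9.94 and 25.3 in IR_Matn3_ko. All groups overlapped, and the IR_Matn3_ko libraries held both the lowest and the second highest value. The 95% interval of its log2 fold change ran from -1.07 to 0.34 in IR_WT against sham_WT, from -0.50 to 0.91 in IR_Matn3_ko against IR_WT and from -0.87 to 0.54 in IR_Matn3_ko against sham_WT. Hapln3, the link protein of vessels and other tissues, stayed at 0.812 to 1.13 CPM and was below the level tested.

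Of the tenascins, tenascin-C (Tnc, ENSMUSG00000028364) is a matrix protein of development and wounds that is scarce in adult cortex. It had 3.24, 11.8 and 8.57 CPM in sham_WT, 37.2, 9.07 and 9.90 in IR_WT, and 39.1, 52.5 and 48.0 in IR_Matn3_ko. All 3 IR_Matn3_ko libraries were above every other library, IR_WT replicate 1 came close to them, and IR_WT replicates 2 and 3 lay within the sham_WT range. Tnc rose in IR_Matn3_ko against sham_WT by 2.56 ± 0.59 on the log2 scale (SE; adjusted p = 0.0136, edgeR), from 7.88 ± 4.34 to 46.5 ± 6.80 CPM (SD, n = 3). The log2 fold changes of 1.24 ± 0.57 in IR_WT against sham_WT (adjusted p = 0.268, edgeR) and 1.32 ± 0.56 in IR_Matn3_ko against IR_WT (adjusted p = 0.355, edgeR) did not pass.

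IR_WT replicate 1 decided both of those values: without it the log2 fold change was 0.27 in IR_WT against sham_WT and 2.30 in IR_Matn3_ko against IR_WT (adjusted p = 0.0602, edgeR). A term for the library set leaves IR_WT against sham_WT resting on IR_WT replicate 1 alone, and Tnc then passed at 2.24 ± 0.45 (adjusted p = 0.0339, edgeR), against 1.7% of all genes called higher. With the cartilage term Tnc passed in all 3 comparisons, at 1.86 ± 0.18, 2.40 ± 0.19 and 4.26 ± 0.24, where 2.52%, 0.319% and 6.75% of all genes were called higher. The limit given for that term under Hapln1 applies here too. The summed CPM of 9 fibroblast and meninges markers was 43.1, 136 and 128 in sham_WT, 146, 69.0 and 78.2 in IR_WT, and 112, 100.1 and 109 in IR_Matn3_ko. Genes of that list differed in direction. Col1a1, a fibrillar collagen gene, ran from 30.6 to 39.2 CPM in the 3 libraries high in cartilage markers and from 1.95 to 7.55 CPM in the other 6, while Dcn was the 1 of 8 tested that rose in IR_Matn3_ko against sham_WT. The part of fibroblasts and meninges in the values of Tnc was not tested.

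Tenascin-R (Tnr, ENSMUSG00000015829), made mainly by oligodendrocyte lineage cells and some neurons, had 180, 192 and 169 CPM in sham_WT, 188, 207 and 168 in IR_WT, and 124, 158 and 136 in IR_Matn3_ko. Sham_WT and IR_WT overlapped and the IR_Matn3_ko libraries were below both. Tnr fell in IR_Matn3_ko against sham_WT by 0.37 ± 0.11 on the log2 scale (SE; adjusted p = 0.0379, edgeR). That call was lost in 5 of the 9 fits that left out 1 library, where the adjusted p reached 0.120 (edgeR): those without any one of the sham_WT libraries and those without IR_Matn3_ko replicate 1 or 3. Against IR_WT the value was -0.43 ± 0.11 (adjusted p = 0.156, edgeR), while IR_WT against sham_WT gave 0.06, with a 95% interval of -0.19 to 0.30.

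Ptprz1 (ENSMUSG00000068748), the receptor phosphatase whose outer part binds tenascins, contactin and the growth factor pleiotrophin, had 233, 255 and 231 CPM in sham_WT, 189, 191 and 226 in IR_WT, and 161, 129 and 154 in IR_Matn3_ko. None of the 3 groups overlapped, with IR_WT between the others. Ptprz1 fell in IR_Matn3_ko against sham_WT by 0.70 ± 0.11 on the log2 scale (SE; adjusted p = 0.00195, edgeR), from 240 ± 13.0 to 148 ± 16.9 CPM (SD, n = 3). The values of -0.25 ± 0.11 in IR_WT against sham_WT (adjusted p = 0.238, edgeR) and -0.45 ± 0.11 in IR_Matn3_ko against IR_WT (adjusted p = 0.132, edgeR) did not pass.

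**Figure D3:**
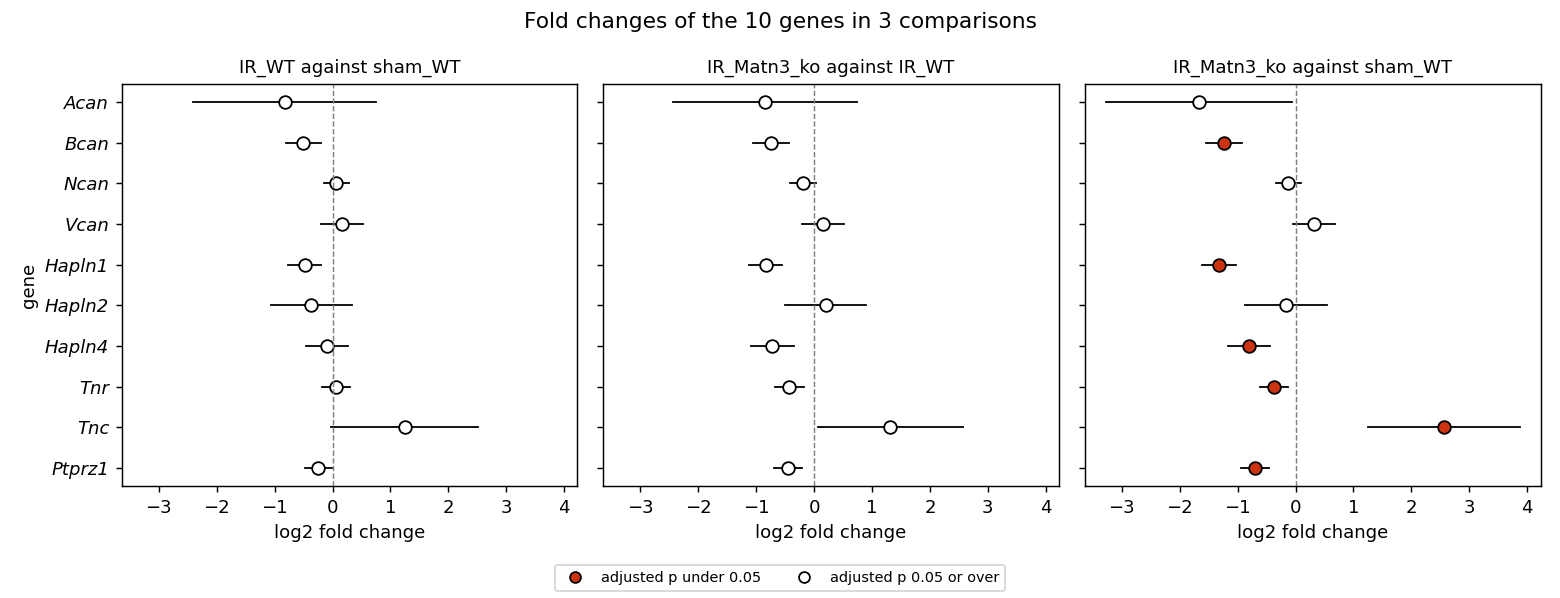
Log2 fold changes (horizontal axes) of the 10 genes in the 3 comparisons, with 95% intervals from edgeR's fit and filled points where the adjusted p was under 0.05. Filled points appear only in IR_Matn3_ko against sham_WT, for Bcan (-1.24), Hapln1 (-1.32), Hapln4 (-0.81), Tnr (-0.37), Ptprz1 (-0.70) and Tnc (2.56).

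The IR_Matn3_ko calls were as many without IR_Matn3_ko replicate 2, the library with Matn3 counts, at 6 of the 10 genes, against 18% of all genes in that fit. Bcan, Hapln1, Hapln4, Tnc and Ptprz1 each passed in all 9 of the leave-one-out fits. The largest adjusted p of each was, in that order, 0.00287, 0.00181, 0.0336, 0.0463 and 0.0107 (edgeR). A term for the library set is estimated within IR_WT alone, from replicate 1 against replicates 2 and 3. It therefore makes IR_Matn3_ko against sham_WT rest on IR_WT replicate 1 too. With the library set term, 4 of the 10 passed (Bcan, Hapln1, Tnc and Ptprz1), against 6.21% of all genes.

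The lecticans shifted against each other within libraries. Summed lectican FPKM was 62.3 ± 6.18 in sham_WT, 54.9 ± 5.04 in IR_WT and 41.1 ± 2.04 in IR_Matn3_ko (SD, n = 3). Bcan made up 58.4% to 63.2% of that sum in sham_WT, 49.1% to 55.9% in IR_WT and 39.0% to 45.2% in IR_Matn3_ko. Ncan made up 33.3% to 35.7%, 40.5% to 46.3% and 50.9% to 54.2%. Neither share overlapped between any pair of groups, and Bcan was the larger in every sham_WT and IR_WT library and Ncan in every IR_Matn3_ko library. These shares mirror each other, since Bcan and Ncan made up most of the sum in every library. Mean Ncan FPKM itself was 21.3 in sham_WT, 23.8 in IR_WT and 21.4 in IR_Matn3_ko. The ratio of Bcan to Ncan FPKM was 1.79 ± 0.134, 1.20 ± 0.160 and 0.818 ± 0.0874 (SD, n = 3). With 3 libraries against 3, an exact two-sided permutation test of that ratio can give no p under 0.1. Vcan made up 1.85%, 2.47% and 3.81% on average, and Acan 3.04%, 2.26% and 1.68%, the latter overlapping between groups.

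**Figure D4:**
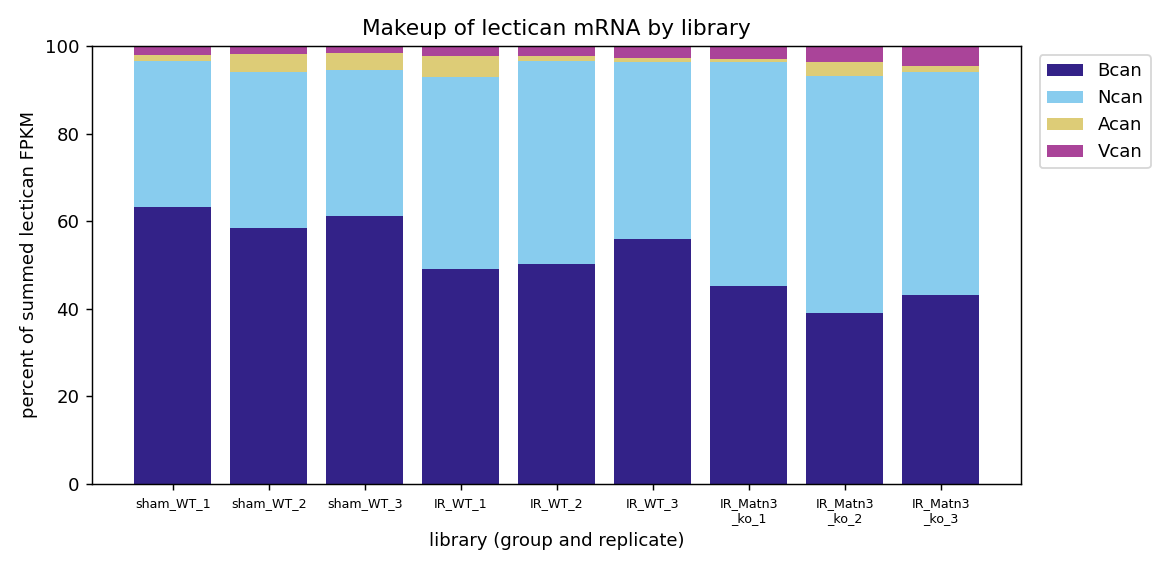
Share of the summed lectican FPKM (vertical axis, percent) that came from Bcan, Ncan, Acan and Vcan in each of the 9 libraries (1 bar each). The Bcan share is 58.4% to 63.2% in sham_WT and 39.0% to 45.2% in IR_Matn3_ko, with IR_WT between.

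Tnc stood at 0.0297 to 0.102 of the FPKM of Tnr in sham_WT and at 0.522 to 0.585 in IR_Matn3_ko. In IR_WT the ratio was 0.327 in replicate 1 and lower in the other 2 libraries, down to 0.0726. Among the link proteins, Hapln4 supplied 74.8%, 78.5% and 70.6% of the summed FPKM in sham_WT, IR_WT and IR_Matn3_ko. Hapln1 supplied 9.18%, 7.31% and 6.36%, with no overlap between sham_WT and IR_WT, while the IR_Matn3_ko libraries overlapped both.

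Each of the brain lecticans lies beside a link protein gene. In the coordinates of the table (GRCm38), Bcan (chr3:87987531-88000230, minus strand) and Hapln2 (chr3:88021750-88027583, minus strand) are 21519 bases apart with no gene between them. Ncan (chr8:70093085-70120873, minus strand) and Hapln4 (chr8:70083457-70090862, plus strand) are 2222 bases apart, and Vcan (chr13:89655312-89742509, minus strand) and Hapln1 (chr13:89539796-89611652, plus strand) are 43659 bases apart. Acan (chr7:79053483-79115099, plus strand) ends 2 bases before Hapln3. In each of the first 3 pairs, 1 gene fell in IR_Matn3_ko against sham_WT and its neighbour did not pass: Bcan beside Hapln2, Hapln4 beside Ncan, and Hapln1 beside Vcan. Tnr (chr1:159523769-159931729, plus strand), Tnc (chr4:63959785-64020725, minus strand) and Ptprz1 (chr6:22875502-23052916, plus strand) have no other of the 10 genes nearby. Genes that overlap Ncan, Vcan, Hapln1, Tnr or Tnc held at most 71 counts in a library, with strand use in counting not given in the sources used here.

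The promoters of 4 of the genes are shown because these genes behaved differently: Bcan and Hapln1 fell, Tnc rose, and Ncan had the narrowest range. Each line gives the 250 bases before a RefSeq start (GRCm38.p6), 5′ to 3′ on the gene's strand, with matches to the motifs searched in capitals.
Bcan, chr3:88000357-88000606, minus strand: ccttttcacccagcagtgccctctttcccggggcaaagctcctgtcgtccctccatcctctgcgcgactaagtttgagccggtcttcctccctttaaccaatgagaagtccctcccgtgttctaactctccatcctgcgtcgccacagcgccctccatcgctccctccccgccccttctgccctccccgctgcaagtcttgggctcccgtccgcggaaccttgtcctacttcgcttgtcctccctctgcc
Hapln1, chr13:89540386-89540635, plus strand: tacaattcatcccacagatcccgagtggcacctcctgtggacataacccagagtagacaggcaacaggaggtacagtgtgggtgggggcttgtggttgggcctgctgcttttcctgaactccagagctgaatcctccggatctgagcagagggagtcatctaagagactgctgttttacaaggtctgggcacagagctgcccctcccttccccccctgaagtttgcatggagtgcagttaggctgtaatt
Tnc, chr4:64046937-64047186, minus strand: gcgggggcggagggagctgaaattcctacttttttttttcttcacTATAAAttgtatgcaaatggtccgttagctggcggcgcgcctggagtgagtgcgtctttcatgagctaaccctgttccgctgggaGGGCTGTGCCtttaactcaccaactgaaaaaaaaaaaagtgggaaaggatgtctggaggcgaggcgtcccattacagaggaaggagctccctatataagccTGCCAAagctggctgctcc
Ncan, chr8:70120845-70121094, minus strand: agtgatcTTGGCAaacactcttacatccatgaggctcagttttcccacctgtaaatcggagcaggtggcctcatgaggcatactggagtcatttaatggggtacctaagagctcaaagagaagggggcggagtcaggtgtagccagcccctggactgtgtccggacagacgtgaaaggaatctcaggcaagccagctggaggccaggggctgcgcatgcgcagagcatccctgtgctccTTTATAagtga

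RefSeq promoters matched 9 of the 10 genes; Hapln4 was not matched. Tnc has a further RefSeq start besides the one shown, and both lie upstream of the span that the table gives for the gene. The window of the further start (chr4:64047016-64047265) held TATAAA 126 bases and the loose NF-kB form 41 bases before that start, but no TTGGCA. The Hapln1 window shown lies inside the span that the table gives for that gene, and the Ncan window overlaps its span in part. On both strands, the TATA box letters TATAAA were found in Tnc and Ncan, against 12.4% of 32851 promoters of the same length. In the Tnc window shown they lay 205 bases before the start, and in Ncan 11 bases before the start on the opposite strand. The letters TTGGCA, part of the site of NFI factors, were found in the same pair of genes, against 12.3% of promoters. In Tnc they were only in the window shown. A loose form of the NF-kB site, GGG and CC with any 5 bases between, was found in Tnc, Acan, Vcan and Ptprz1, against 45.8% of promoters. The SOX letters AACAAT were found in Hapln2, against 9.42%, and the AP-1 letters TGANTCA in none of the 9, against 6.75%. No match overlapped one of another motif, and the windows of Bcan and Hapln1 shown above held no match. Only the letters given were searched, so the stretch tatataa nearer the start of Tnc is not in capitals. GC content over the windows shown was 62.0% in Bcan, 54.4% in both Hapln1 and Ncan, and 51.2% in Tnc, beside 74.4% in Acan. It was 44.8% in the window of the further Tnc start.

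Several proteases that cut lecticans rose after ischemia. Of 11 lectican-cleaving proteases and their inhibitors, 10 were tested: 3 rose and none fell in IR_WT against sham_WT, where 2.54% of all genes rose and 1.52% fell. None passed in IR_Matn3_ko against IR_WT, where 0% of all genes did, and 5 rose and 2 fell in IR_Matn3_ko against sham_WT, where 11.8% of all genes rose and 10.7% fell. The lists that follow are read against the same shares. The median log2 fold change of the list was 0.48, 0.54 and 0.90 in those comparisons. Adamts1, a secreted protease that cuts aggrecan, brevican and versican, had 10.9, 14.6 and 10.2 CPM in sham_WT, 67.9, 27.5 and 35.0 in IR_WT, and 75.1, 64.6 and 86.1 in IR_Matn3_ko. It rose by 1.87 ± 0.30 in IR_WT and by 2.66 ± 0.31 in IR_Matn3_ko against sham_WT on the log2 scale (adjusted p = 0.00937 and 0.000536, edgeR), though the first call was lost without sham_WT replicate 1 (adjusted p = 0.0577, edgeR).

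Adamts9, a protease of the same family that cuts versican and aggrecan, had 0.789 to 2.20 CPM in sham_WT, 8.94 to 21.5 in IR_WT and 24.5 to 43.6 in IR_Matn3_ko. It rose by 3.22 ± 0.43 and 4.51 ± 0.45 on the log2 scale (adjusted p = 0.00346 and 0.000229, edgeR), with no overlap between sham_WT and either group. Mmp3 (stromelysin-1), a matrix metalloprotease that cuts several proteoglycans, had 0, 0 and 0.0752 CPM in sham_WT, against 2.09 to 7.66 in IR_WT and 11.05 to 26.8 in IR_Matn3_ko, and passed in both (adjusted p = 0.00231 and 0.000230, edgeR). Its fitted fold change is not given because a single sham_WT library held counts. Timp1, a secreted inhibitor of metalloproteases, was at 0.454 to 1.11 CPM in sham_WT, 1.44 to 3.41 in IR_WT and 6.34 to 8.43 in IR_Matn3_ko, and rose in IR_Matn3_ko by 3.06 ± 0.41 on the log2 scale (adjusted p = 0.000956, edgeR). The 2 that fell there were Adamts15, which cuts versican and aggrecan, at -0.99 ± 0.18, and the inhibitor Timp3 at -0.52 ± 0.16 (adjusted p = 0.00420 and 0.0479, edgeR).

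Of 11 genes for hyaluronan synthesis, breakdown and binding, 7 were tested. None passed in IR_WT against sham_WT or in IR_Matn3_ko against IR_WT, and 4 rose and none fell in IR_Matn3_ko against sham_WT (11.8% and 10.7% of all genes), with list medians of 0.18, 0.30 and 0.55. Cd44, the main hyaluronan receptor of astrocytes and leukocytes, had 7.32, 16.4 and 14.6 CPM in sham_WT, 25.5, 9.78 and 14.3 in IR_WT, and 35.5, 42.0 and 48.2 in IR_Matn3_ko. As for Tnc, all IR_Matn3_ko libraries were above every other library and replicate 1 was the high one in IR_WT. Cd44 rose in IR_Matn3_ko against sham_WT by 1.71 ± 0.36 on the log2 scale (adjusted p = 0.0100, edgeR). Lyve1, a hyaluronan receptor of lymphatic vessels and border macrophages, rose by 3.83 ± 0.75 (adjusted p = 0.00666, edgeR). Its CPM was 0.203 to 0.671 in sham_WT, 1.11 to 4.01 in IR_WT and 1.62 to 8.30 in IR_Matn3_ko. The hyaluronidases Hyal1 (0.88 ± 0.26) and Hyal2 (0.55 ± 0.15) passed at adjusted p = 0.0347 and 0.0276 (edgeR), each in 4 of the 9 leave-one-out fits. Hyal1 was lost without any one sham_WT library and without IR_Matn3_ko replicate 1 or 3, and Hyal2 without sham_WT replicate 2 or 3 or any one IR_Matn3_ko library. Both were lost with no filter on low genes (adjusted p = 0.0614 and 0.0510, edgeR), and Hyal2 also with the cartilage term and the library set term (adjusted p = 0.187 and 0.297, edgeR). The synthases Has1, Has2 and Has3 were below the level tested.

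Other proteoglycans followed both directions. Of 10 genes, 9 were tested, none passed in IR_WT against sham_WT or in IR_Matn3_ko against IR_WT, and 1 rose and 4 fell in IR_Matn3_ko against sham_WT, where 11.8% and 10.7% of all genes did. Decorin (Dcn), a small collagen-binding proteoglycan of fibroblasts, rose by 2.14 ± 0.26 on the log2 scale (adjusted p = 0.000655, edgeR). Its CPM was 5.92 to 11.5 in sham_WT, 13.9 to 21.5 in IR_WT and 30.3 to 43.8 in IR_Matn3_ko. Neuroglycan C (Cspg5), a membrane proteoglycan of neurons and glia, fell by 0.71 ± 0.15, and Spock1 and Spock3, the secreted testicans of neurons, fell by 0.48 ± 0.11 and 0.52 ± 0.13 (adjusted p = 0.00858, 0.0144 and 0.0193, edgeR). Cspg4 (NG2), the proteoglycan of oligodendrocyte precursors and pericytes, fell by 0.48 ± 0.13 (adjusted p = 0.0253, edgeR) but was lost in each fit that left out a sham_WT or IR_Matn3_ko library (adjusted p up to 0.0692, edgeR). The call of Spock3 was lost without sham_WT replicate 1 or 3 or IR_Matn3_ko replicate 1 (adjusted p up to 0.0748, edgeR). With no scaling both were lost (adjusted p = 0.0712 for Cspg4 and 0.0605 for Spock3, edgeR), as they were in limma on FPKM (up to 0.134 and 0.0822). Cspg4 was also lost with no filter (adjusted p = 0.0521, edgeR), and Spock3 with the cartilage term and the library set term (adjusted p = 0.105 and 0.599, edgeR). In the other 2 comparisons the most abundant of the list, Spock2, had log2 fold changes of -0.01 and -0.10.

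Among 16 receptors and ligands of nets, tenascins and Ptprz1, 15 were tested: 1 fell in IR_WT against sham_WT (1.52% of all genes), none passed in IR_Matn3_ko against IR_WT, and 3 rose and 5 fell in IR_Matn3_ko against sham_WT (11.8% and 10.7% of all genes). Pleiotrophin (Ptn), the heparin-binding ligand of Ptprz1, had 382, 365 and 364 CPM in sham_WT, 208, 196 and 226 in IR_WT, and 172, 171 and 139 in IR_Matn3_ko. All 3 groups were separate, in the same order as for Ptprz1. Ptn fell by 0.82 ± 0.10 in IR_WT and by 1.21 ± 0.10 in IR_Matn3_ko against sham_WT on the log2 scale (adjusted p = 0.00200 and 7.51e-05, edgeR). Contactin-1 (Cntn1), a neuronal partner of Ptprz1 and tenascin-R, fell in IR_Matn3_ko against sham_WT by 0.57 ± 0.08, and Ptprs and Ptprd, of which the first is a receptor for chondroitin sulfate, fell by 0.30 ± 0.09 and 0.65 ± 0.12 (adjusted p = 0.00161, 0.0360 and 0.00598, edgeR). The Nogo receptor Rtn4r fell by 0.50 ± 0.10 (adjusted p = 0.00636, edgeR).

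The 3 that rose were Nptx2, a secreted pentraxin that binds nets around parvalbumin cells (1.64 ± 0.28), the growth factor Fgf2 (1.34 ± 0.22) and the integrin subunit Itgb1 (0.64 ± 0.11), with adjusted p = 0.00360, 0.00260 and 0.00378 (edgeR). Nptx2 reached 138 CPM in IR_Matn3_ko replicate 2, against 54.5 and 70.6 in the other 2. None of these 3 genes passed in IR_WT against sham_WT. Nptx2 ran from 26.7 to 30.7 CPM in sham_WT and from 46.2 to 53.3 in IR_WT. Fgf2 ran from 9.13 to 10.1 and from 14.7 to 20.1, and Itgb1 from 66.7 to 75.9 and from 78.6 to 101. With the library set term, Nptx2 and Ptprd no longer passed in IR_Matn3_ko against sham_WT (adjusted p = 0.0590 and 0.281, edgeR).

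**Figure D5:**
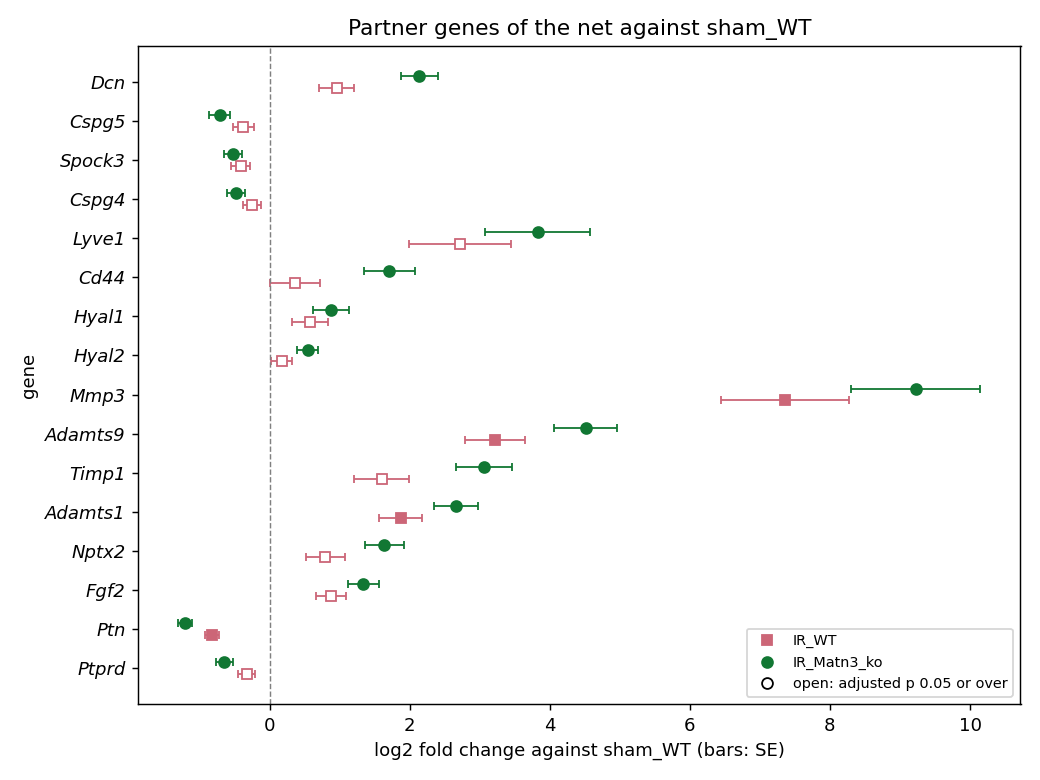
Log2 fold changes against sham_WT (horizontal axis, bars of 1 SE) of the genes of the 4 partner lists that the naming rule picked for IR_Matn3_ko against sham_WT. Squares mark IR_WT, circles mark IR_Matn3_ko, and symbols are open where the adjusted p was 0.05 or over. The fitted value of Mmp3 is drawn, though only 1 sham_WT library held counts of it. The proteases Adamts1 and Adamts9 are filled on the right in both groups and Ptn on the left in both (-0.82 and -1.21). Dcn, Lyve1, Cd44 and Timp1 are filled for IR_Matn3_ko and open for IR_WT.

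Markers of the cells that make net components were counted beside these genes, against 11.8% of all genes that rose and 10.7% that fell in IR_Matn3_ko against sham_WT. The summed CPM of 9 astrocyte markers was 4169 to 4767 in sham_WT, 3857 to 4747 in IR_WT and 3563, 2305 and 3447 in IR_Matn3_ko. In IR_Matn3_ko against sham_WT, 4 of them fell, among them the glutamate transporter Slc1a2 (-1.17 ± 0.15, adjusted p = 0.000724, edgeR), and 1 rose, the reactive astrocyte filament Gfap (3.44 ± 0.28, adjusted p = 7.79e-05, edgeR). In IR_WT against sham_WT, Gfap was at 3.38 ± 0.28. Of 9 neuron markers 7 fell in IR_Matn3_ko against sham_WT, with a list median of -0.52. In IR_WT against sham_WT 1 of them fell, where 1.52% of all genes did, with a list median of -0.27. The sum ran from 11374 to 11705 CPM in sham_WT, from 9465 to 11125 in IR_WT and from 6987 to 9620 in IR_Matn3_ko, and IR_Matn3_ko replicate 2 was lowest in both lists.

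Of 9 markers of parvalbumin interneurons 2 passed in IR_Matn3_ko against sham_WT, where 22.5% of all genes passed, a share like that of the list. Both fell: the potassium channel Kcnc1 (-0.57 ± 0.08) and the synaptic protein Syt2 (-0.97 ± 0.31), with adjusted p = 0.00126 and 0.0462 (edgeR). Pvalb itself was at -0.68 ± 0.24 (adjusted p = 0.0706, edgeR). In IR_WT against sham_WT, 1 of these 9 parvalbumin interneuron markers fell, where 1.52% of all genes did. The summed CPM of 9 oligodendrocyte precursor markers was 210 to 221 in sham_WT, 173 to 221 in IR_WT and 189 to 206 in IR_Matn3_ko, so IR_WT spanned both other ranges. None of them passed in IR_WT against sham_WT, and 1 rose and 3 fell in IR_Matn3_ko against sham_WT. Of 9 markers of myelinating oligodendrocytes, 5 fell in IR_WT against sham_WT (1.52% of all genes) and 4 in IR_Matn3_ko against sham_WT (10.7%), with list medians of -0.72 and -0.52. The part of these cell types in the values of Bcan, Hapln1, Hapln4, Tnr and Ptprz1 was not tested.

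Over the 9 libraries, the genes most like each net gene were ranked by Pearson's r of log2(CPM + 1). These values describe libraries that share groups and library sets, and they carry no p. Bcan was closest to Slc22a8 (r = 0.995), an organic anion transporter of the blood-brain barrier, Itih5 (0.991) and Glud1 (0.991), and Ptprz1 was closest to Itih5 (0.992), 9630013A20Rik (0.991) and Tlcd1 (0.990). Tnc was closest to the kinase Lyn (0.978), Anxa2 (0.977) and Tgs1 (0.976). Acan was closest to Stk4 (0.958), Mest (0.957) and the cartilage collagen gene Col9a1 (0.950). Hapln1 was closest to Phactr1 (0.973), Hapln4 to Chic1 (0.989), Tnr to Gm14817 (0.960), Vcan to Gnpnat1 (0.949), Ncan to Tacc1 (0.929) and Hapln2 to Gm37827 (0.968), with Cntn2, a cell adhesion gene of myelinated axons, as the third at 0.936.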

How the data were processed

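Poly(A) RNA was made into strand-marked, paired-end libraries whose adapters carried molecular identifiers, per the labels' protocols. The authors deposited whole-number raw counts per gene, not normalized, and FPKM values per library, per the file headers. The submitters' processing notes name, with no role or order, the tools HISAT2 2.0.4, StringTie 1.3.4d, edgeR, DESeq2, cutadapt 1.9 and UMI-tools. They name the human build GRCh38, while the table's identifiers and coordinates are those of mouse GRCm38. It is unknown here whether molecules or reads were counted.

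Groups and replicate numbers came from the sample titles. The 17247 genes that reached 0.5 FPKM in 3 or more of 9 libraries were tested with edgeR 4.0.16 (quasi-likelihood test, TMM scaling, all 9 libraries in 1 model, 6 residual degrees of freedom), with Benjamini-Hochberg adjustment over all of them and a threshold of 0.05. Standard errors and 95% intervals come from that test. CPM values are TMM-scaled, except summed marker CPM, which is relative to total counts. Alternatives were DESeq2 1.42.0, limma 3.58.1 on log2(FPKM + 1) and log2(FPKM + 0.1), other scalings and filters, fits of 2 groups, a replicate block, leaving out each library, and terms for the log2 cartilage marker sum and for the library set (over or under 50 summed CPM of intestine markers, a limit chosen after seeing the data). Procedures were tested on simulated data. Differences between replicates exceeded sampling noise (chi-square 23.8 to 80.9 per degree of freedom). P-values set a difference between groups against the spread of these libraries within groups. The genes and gene lists were chosen with earlier results of these data known. Named are all 10 genes, of each list the called genes with the largest changes (at most 4) or otherwise its 2 most abundant genes, and the 3 most correlated genes of each net gene. Further names were chosen after their values were seen.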

Additional observations from a re-analysis of the deposited data

How the results depend on the processing

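The calls of net genes in IR_Matn3_ko against sham_WT ranged from 4 to 6 of 10 over all alternatives and from 5 to 6 without 1 library. In IR_WT against sham_WT the count of 0 became 2 with DESeq2, 1 with the library set term, 1 with the cartilage term, and 0 to 1 without 1 library (1 without IR_WT replicate 3). In IR_Matn3_ko against IR_WT it became 5 with DESeq2 and 1 with the cartilage term, and stayed at 0 to 0 without any 1 library. Of the log2 fold changes of named genes under alternatives, 1130 kept sign and side of the threshold, 18 passed newly, 49 no longer passed and 36 turned in sign, all of the last for values that had not passed. The cause was not tested.

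Signs that turned in IR_WT against sham_WT were Spock2 at 0.067 with no scaling, 0.084 and 0.085 in limma with pseudocounts 1 and 0.1, and -0.087 to 0.077 without 1 library. Tnfaip6 was at 0.018, 0.026 and 0.033 in those settings, 0.17 with the set term, 0.038 with the cartilage term and -0.19 to 0.084 without 1 library. Hapln4 was at 0.0017 and 0.0018 in limma. With the set term Acan was at 0.20, Ncan at -0.042 and Vcan at -0.022. Without 1 library Ncan ran from -0.024 to 0.16, Cd44 from -0.086 to 0.64, Tnr from -0.020 to 0.13 and Vcan from -0.011 to 0.25. In IR_Matn3_ko against IR_WT, Acan was at 0.20 with the set term, 0.37 with the cartilage term and -1.57 to 0.21 without 1 library, where Vcan ran from -0.0051 to 0.33 and Hapln2 from -0.068 to 0.51. In IR_Matn3_ko against sham_WT, Ncan was at 0.020 with no scaling and 0.011 and 0.012 in limma, Acan at 0.40 and 0.24 and Hapln2 at 0.22 and 0.075 with the set and cartilage terms, and Hapln2 ran from -0.43 to 0.14 without 1 library. Tnr in that comparison was also lost with no scaling, with no filter, in limma and with both terms (adjusted p = 0.152 with the cartilage term and 0.338 with the set term, edgeR).

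Counts over all genes were less stable: in IR_WT against sham_WT 701, with 1664 by DESeq2, 418 with no filter, 407 with the set term and 242 to 996 without 1 library. In IR_Matn3_ko against IR_WT 0 became 668 by DESeq2, 44 in limma with pseudocount 1, 34 with the set term, 59 with the cartilage term, 37 without IR_WT replicate 1 and 61 without IR_Matn3_ko replicate 2. In IR_Matn3_ko against sham_WT 3887 became 1071 with the set term, 2112 with the cartilage term and 2139 to 4182 without 1 library. With no scaling the median log2 fold change over all genes there was 0.143, and 75.1% of calls were higher, against 52.4% with TMM; limma gave 71.7% and 72.7%. In IR_WT against sham_WT 79.1% were higher with no scaling and 74.7% and 84.2% in limma, against 62.5%. Same-numbered libraries did not deviate together (r from -0.24 to 0.17 over genes). With 3 libraries per group these values cannot show whether the numbers pair the libraries. A fit with the replicate block gave 0, 0 and 6 net gene calls in the 3 comparisons and 410, 0 and 3200 calls over all genes. Hyal1 and Hyal2 no longer passed with that block (adjusted p = 0.0539 and 0.0540, edgeR). Genes named outside the naming rule were not refitted under the alternatives. The planned limit of 10 CPM for the library set could not be fitted, as it put every library of both ischemic groups in 1 set.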
